A study of Homo sapiens with 4 samples.

Results

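The 37 genes described here encode the protein-folding and quality-control machinery of the endoplasmic reticulum (ER), and they were taken by symbol from a list of 38 names, of which SELENOS and VIMP are the same gene. All 37 were found by Ensembl identifier among the 58233 genes of the count table. They fell into 12 chaperones and co-chaperones, 6 disulfide enzymes, 11 genes of ER-associated degradation, 5 stress sensors and transcription factors, and 3 genes of protein translocation and export.

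Messenger RNA was sequenced in the human pancreatic cancer cell lines MIA PaCa-2 and PANC-1, both labelled wild type, 24 h after treatment with cannabichromene (CBC) or PBS. CBC is one of the cannabinoids that the cannabis plant makes besides THC and cannabidiol. The methods of the study give doses of 35 µM for MIA PaCa-2 and 30 µM for PANC-1 cells, so dose and line cannot be told apart. They also give acetonitrile as the solvent of CBC and call the controls vehicle controls, whereas the labels name PBS. Whether the control libraries received acetonitrile is not given in the sources used here, and a part of the solvent in the results was not tested. Each of the 4 conditions was 1 library of an established line, with no replicate culture.

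Secretory and membrane proteins fold in the ER with the help of chaperones and of enzymes that form and reshuffle disulfide bonds. When unfolded proteins build up, 3 sensors in the ER membrane, IRE1, ATF6 and PERK, start the unfolded protein response. IRE1 splices the mRNA of XBP1 and ATF6 is cut in the Golgi, and the transcription factors thus made switch on chaperone and degradation genes, while PERK slows translation and raises ATF4. Proteins that cannot be folded are moved back to the cytosol and destroyed by the proteasome, a route called ER-associated degradation.

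The libraries held 21742775 to 27903667 counts, and 3 counts, the limit that a count of 0 allows, corresponded to 0.108 to 0.138 CPM (read counts relative to the size of each library). Counts on mitochondrial genes made up 5.81% with PBS and 3.86% with CBC in MIA PaCa-2, and 4.63% and 2.42% in PANC-1 cells. This share was lower with CBC in both lines, and its part in the results was not tested. KRT8, KRT18, KRT19, SOX9 and VIM were abundant in all 4 libraries, while EPCAM and CDH1 had at most 1 count in MIA PaCa-2 cells and CFTR had none in any library. The duct markers KRT7 and MUC1 had 2 to 58 and 112 to 335 counts. The mesenchymal markers FN1 and ZEB1 had 0 to 5 and 959 to 2765 counts. Of the 13 markers of acinar, endocrine, leukocyte and endothelial cells, 7 had no count in any library, and CEL was the most abundant with 19 to 120 counts. Their summed level was 6.34 and 5.66 CPM in MIA PaCa-2 (PBS and CBC) and 1.5 and 1.9 CPM in PANC-1, with INS, GCG, PTPRC, CD3E and PECAM1 at 0. In bulk RNA fewer cells of a type and less RNA per cell cannot be told apart.

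With CBC, the ER genes took a larger share of the RNA in MIA PaCa-2 cells, whereas in PANC-1 cells the share was larger only when HSPA5 was counted. The 37 genes held 0.697% of the counts with PBS and 1.64% with CBC in MIA PaCa-2, and 0.822% and 0.996% in PANC-1 cells. Without HSPA5, the share was 0.635% and 1.29% in MIA PaCa-2, and 0.754% and 0.735% in PANC-1 cells. Set against gene length, as CPM per kilobase of the canonical mRNA, calreticulin (CALR) led the genes in both controls at 470.4 and 475, and HSPA5 led in both CBC libraries at 834 in MIA PaCa-2 and 677 in PANC-1 cells.

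**Figure D1:**
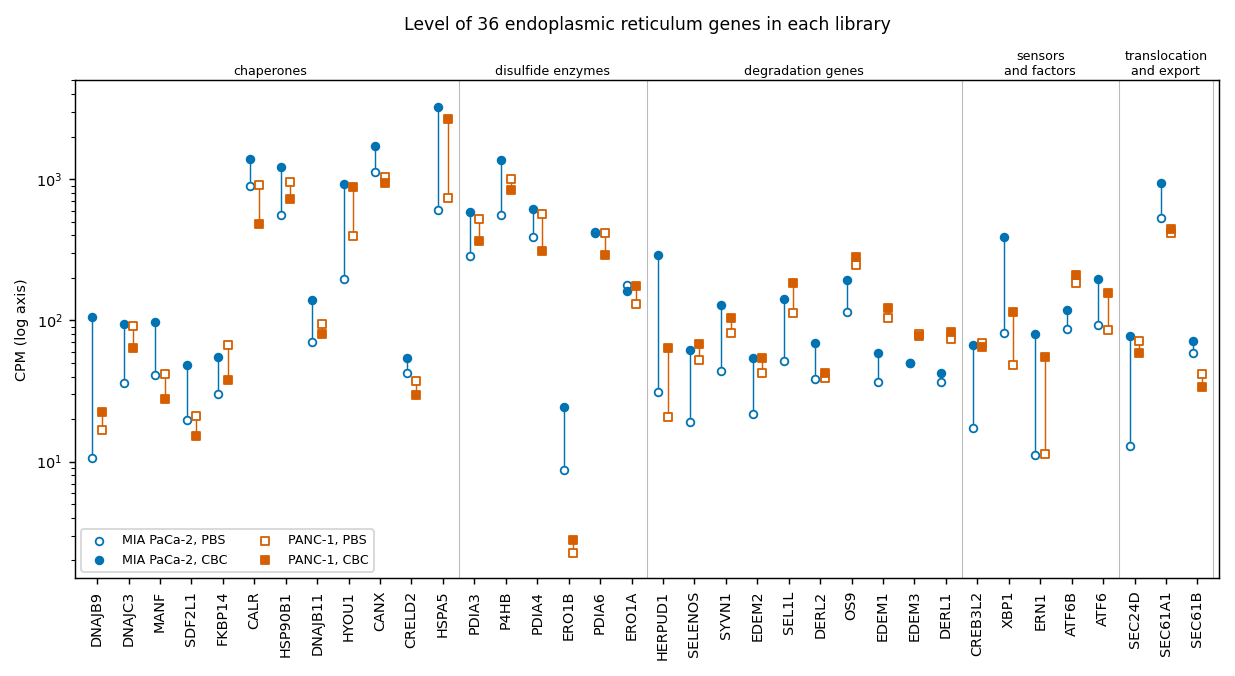
Level of the 36 genes with at least 1 CPM in a library, in CPM on a log axis, by functional class, with open symbols for PBS and filled symbols for CBC in MIA PaCa-2 (circles) and PANC-1 cells (squares); each point is 1 library. HSPA5 runs from 607 to 3269.6 CPM in MIA PaCa-2 and from 731 to 2656 CPM in PANC-1 cells, whereas CALR runs up in MIA PaCa-2 and down in PANC-1 cells.

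Between CBC and PBS, 20 of 36 genes in MIA PaCa-2 cells were above a log2 fold change of 1, beside 11.5% of all genes tested, and 0 were below -1, beside 8.97%. In PANC-1, 5 of 36 were above 1, beside 7.71% of all genes, and 0 were below -1, beside 7.03%. The 5 were HSPA5, HYOU1, HERPUD1, XBP1 and ERN1, and all 5 were also among the 20 in MIA PaCa-2 cells, beside 3.33% of all genes above 1 in both lines. The median log2 fold change was 1.11 (range -0.14 to 3.30) in MIA PaCa-2 and 0.11 (-0.91 to 2.27) in PANC-1 cells, where the medians of all genes were -0.01 and 0.02. All 36 genes had at least 1 CPM in every library. DERL3, an ER membrane protein of the derlin family, is the 1 gene left out. It had 0 counts in 3 libraries and 7 in the PANC-1 control, and 77.0% of its exon bases overlap SMARCB1 on the opposite strand.

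With 1 library per condition there was no test within a line or of the difference between lines, and the 95% intervals given with each log2 fold change cover counting error only. At this depth they excluded 0 for 34 genes in MIA PaCa-2 and 33 in PANC-1 cells, and for 32 of 36 in both, beside 60.8% of all genes. Such intervals narrow as counts grow, and the levels of the 36 and of all genes were not matched. Only the pair of lines replicated the treatment. CBC was therefore tested against PBS over both lines by the quasi-likelihood method of edgeR, blocked by line, which left 1 residual degree of freedom. At an adjusted p under 0.05 (Benjamini-Hochberg over all genes), 6 of 36 genes were higher, beside 2.26% of all genes tested, and 0 were lower, beside 2.45%. They were HSPA5, HYOU1, HERPUD1, XBP1, ATF6 and ERN1. At an unadjusted p under 0.05 there were 11 of 36, beside 20.9% of all genes. Without the block none of the 16381 genes was called, with 354 genes and 5 of the 36 at an unadjusted p under 0.05. Without a filter on low counts 14 of the 36 were called, beside 7.15% of all genes, and with DESeq2 7, beside 10.2% of the genes it gave an adjusted p.

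**Figure D2:**
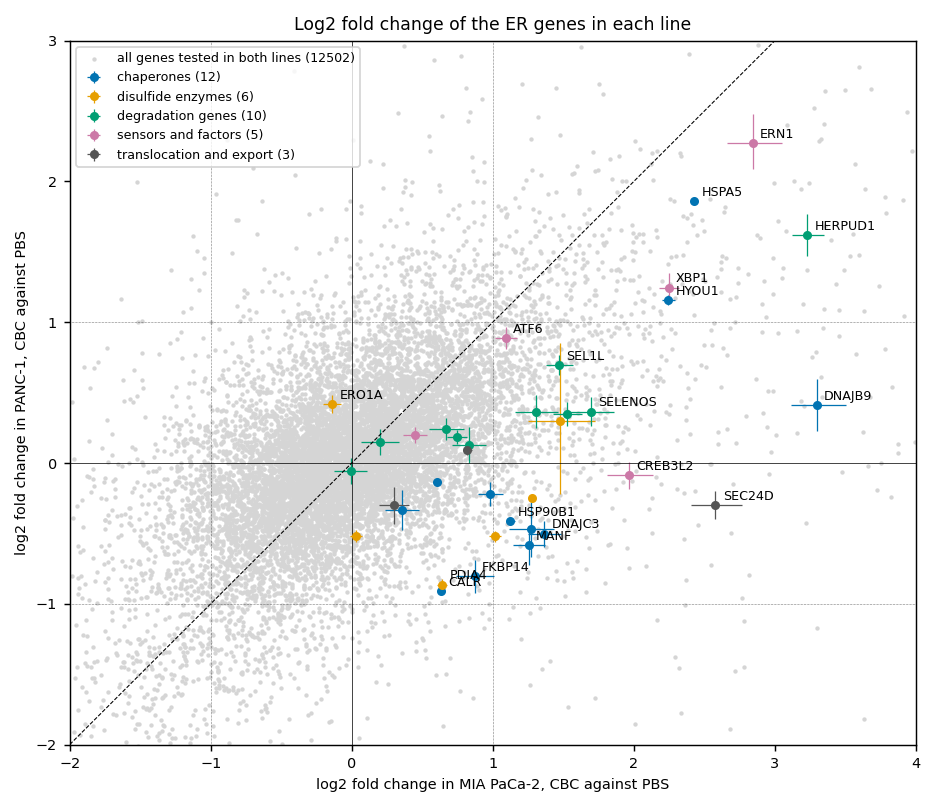
Log2 fold change of CBC against PBS in MIA PaCa-2 (x axis) and PANC-1 cells (y axis) for the 36 genes, colored by class, with bars for the 95% counting interval, over all 12502 genes tested in both lines in grey (genes beyond the axes are not shown) and the line of equal response dashed. Of the 36 colored points 35 lie below the dashed line, beside 6146 of all 12502 genes. CREB3L2 and SEC24D lie near or below 0 in PANC-1 while above 1 in MIA PaCa-2 cells.

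Of the 5 sensors and factors, 4 in MIA PaCa-2 and 2 in PANC-1 cells were above a log2 fold change of 1, with medians of 1.97 and 0.89, and 3 were called across both lines. Among them ERN1 had the largest log2 fold change in each line. ERN1 encodes IRE1α, the kinase and ribonuclease that splices XBP1 mRNA. It is located on chromosome 17 of GRCh38 from 64039080 to 64130819. Here and in what follows, levels are given first for PBS and then for CBC. ERN1 was at 11.1 CPM with PBS and 80.3 CPM with CBC in MIA PaCa-2 versus 11.3 and 55.2 CPM in PANC-1 cells. The controls of both lines were nearly equal and both CBC libraries were far above them. The log2 fold change was 2.84 (2.66 to 3.05) in MIA PaCa-2 and 2.27 (2.09 to 2.48) in PANC-1 cells, and ERN1 rose across both lines by 2.57 (standard error 0.27, adjusted p = 0.00657, edgeR).

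XBP1, the transcription factor made from the IRE1-spliced mRNA, is located on chromosome 22 from 28794555 to 28800597. Its level was 81.8 and 389 CPM in MIA PaCa-2 versus 48.2 and 114 CPM in PANC-1 cells. PANC-1 cells with CBC thus held a level between the MIA PaCa-2 control and MIA PaCa-2 cells with CBC. The log2 fold changes were 2.25 (2.18 to 2.32) and 1.24 (1.15 to 1.35), and XBP1 rose across both lines by 1.76 (standard error 0.28, adjusted p = 0.0188, edgeR). Gene counts do not separate spliced from unspliced XBP1 mRNA, and splicing was not analysed here.

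ATF6, the membrane-bound factor that is released by cleavage, had 92.3 and 197 CPM in MIA PaCa-2 versus 85.0 and 157 CPM in PANC-1 cells. Both lines started and ended at similar levels. Its log2 fold changes were 1.09 (1.02 to 1.17) and 0.89 (0.81 to 0.96), with 1.0 across both lines (standard error 0.20, adjusted p = 0.0369, edgeR). With DESeq2's size factors in place of TMM that adjusted p was 0.0508. ATF6B, its close relative, had log2 fold changes of 0.45 and 0.20.

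CREB3L2, a membrane-bound factor of the same regulated-cleavage kind that drives export genes such as SEC24D, was low in the MIA PaCa-2 control. It had 17.2 and 67.4 CPM in MIA PaCa-2 versus 69.3 and 65.1 CPM in PANC-1 cells. MIA PaCa-2 cells with CBC reached the level that PANC-1 cells had in both libraries. The log2 fold changes were 1.97 (1.81 to 2.14) and -0.09 (-0.19 to 0.01).

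Of the 12 chaperones and co-chaperones, all 12 had a log2 fold change above 0 in MIA PaCa-2 cells, 7 of them above 1, and 3 were above 0 in PANC-1 cells. Among all genes tested, 6879 of 14001 were above 0 in MIA PaCa-2 and 7245 of 14091 in PANC-1 cells. The class medians were 1.19 and -0.37, and 2 of the 12, HSPA5 and HYOU1, were called across both lines. HSPA5 (BiP, chromosome 9, 125234853 to 125241382) is the ER member of the HSP70 family and holds the 3 sensors inactive when it is bound to them. It had 607 and 3269.6 CPM in MIA PaCa-2 versus 731 and 2656 CPM in PANC-1 cells. Both CBC libraries were far above both controls. The log2 fold changes were 2.43 (2.40 to 2.46) and 1.86 (1.84 to 1.89), and HSPA5 rose across both lines by 2.15 (standard error 0.19, adjusted p = 0.00559, edgeR).

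HYOU1 (GRP170, chromosome 11, 119044188 to 119057227) exchanges the nucleotide of HSPA5 and is itself a chaperone. It had 195 and 925 CPM in MIA PaCa-2 versus 397 and 885 CPM in PANC-1 cells. The MIA PaCa-2 control was below the PANC-1 control, and the CBC libraries were close to each other. HYOU1 rose across both lines by 1.71 (standard error 0.27, adjusted p = 0.0196, edgeR), with 2.24 (2.20 to 2.29) in MIA PaCa-2 and 1.16 (1.12 to 1.19) in PANC-1 cells.

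The J-domain partners of HSPA5 had log2 fold changes of at most 0.41 in PANC-1 cells. DNAJB9 (ERdj4, chromosome 7, 108569867 to 108574850), which also restrains IRE1, led the 36 genes in MIA PaCa-2 cells with a log2 fold change of 3.30 (3.11 to 3.50), with 10.6 and 105 CPM. In PANC-1 cells it was at 16.8 and 22.4 CPM, a log2 fold change of 0.41 (0.22 to 0.60). Across both lines its adjusted p was 0.149 (edgeR) with an effect of 1.86. DNAJC3 (p58IPK), a co-chaperone and inhibitor of PERK, had 36.3 and 93.7 CPM in MIA PaCa-2 versus 90.6 and 64.0 CPM in PANC-1 cells. The lines thus exchanged their order, with log2 fold changes of 1.37 (1.25 to 1.49) and -0.50 (-0.60 to -0.41). DNAJB11 (ERdj3), which hands substrates to HSPA5, had 70.4 and 139 CPM in MIA PaCa-2 versus 94.2 and 80.8 CPM in PANC-1 cells, with log2 fold changes of 0.98, just under 1, and -0.22. SDF2L1, which keeps clients of DNAJB11 and HSPA5 soluble, had log2 fold changes of 1.27 (1.11 to 1.43) and -0.47 (-0.66 to -0.28).

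The chaperones that act beside HSPA5 were likewise on opposite sides of 0 in the lines. HSP90B1 (GRP94, chromosome 12, 103930107 to 103953931), the HSP90 of the ER, had 559 and 1220.5 CPM in MIA PaCa-2 versus 958 and 719 CPM in PANC-1 cells. Its log2 fold changes were 1.13 (1.10 to 1.16) and -0.41 (-0.44 to -0.39). CALR (chromosome 19, 12938578 to 12944489), a lectin chaperone that binds calcium and glycoproteins, had 894 and 1389 CPM in MIA PaCa-2 versus 902 and 480.5 CPM in PANC-1 cells. The controls were nearly equal and the CBC libraries lay above and below them. In PANC-1 cells CALR had the lowest log2 fold change of the 36 genes, -0.91 (-0.94 to -0.88), and in MIA PaCa-2 cells it was 0.64 (0.61 to 0.66). Calnexin (CANX), the membrane-bound partner of CALR, had smaller values of 0.61 (0.58 to 0.63) and -0.13 (-0.16 to -0.11).

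Of the secreted or luminal helpers, MANF, a cofactor of HSPA5 that is released under ER stress, had 40.8 and 97.5 CPM in MIA PaCa-2 versus 41.9 and 27.9 CPM in PANC-1 cells. The controls were again nearly equal, and the log2 fold changes were 1.26 (1.15 to 1.37) and -0.58 (-0.72 to -0.45). FKBP14, a prolyl isomerase for collagen folding, had 30.2 and 55.4 CPM in MIA PaCa-2 versus 66.5 and 38.1 CPM in PANC-1 cells, a log2 fold change of 0.87 (0.74 to 1.01) and of -0.80 (-0.92 to -0.69). CRELD2, an ER protein that is released under stress, had the smallest chaperone value in MIA PaCa-2 cells, 0.35 (0.23 to 0.48), and -0.33 (-0.47 to -0.19) in PANC-1 cells.

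The promoters of some of these genes hold ER stress elements, the sequences through which ATF6 and XBP1 act together with the factor NF-Y, and some are shown, picked with the values known, because genes with the same element lay on both sides of 0 in PANC-1 cells. RefSeq windows of GRCh38.p14, from 250 bases before to 50 after a transcription start, were at hand for 32 of the 37 genes. CCAAT and CCACG with 9 bases between them (ERSE, either strand) occurred in the windows of 8 of the 32, HSPA5, HSP90B1, CALR, CANX, CRELD2, PDIA6, ERO1B and XBP1, and in 0.0916% of 27305 genes with windows. ATTGG and CCACG with 1 base between them (ERSE-II) occurred in 3, HERPUD1, HYOU1 and SDF2L1, and in 0.0696% of genes. TGACGTGG (UPRE) occurred in HYOU1, overlapping its ERSE-II, and in 0.927% of genes, and TGATGNAA (CARE, the element of ATF4) in HERPUD1 and CREB3L2 and in 4.46% of genes. The stretches below lie upstream of the RefSeq start and outside GENCODE exons, are written 5′ to 3′ on the strand of the gene, and have the element in capitals. The stretches of HSP90B1 and CANX run into GENCODE exons and are not shown, nor is that of ERO1B.
HSPA5, chr9:125241383-125241429, minus strand: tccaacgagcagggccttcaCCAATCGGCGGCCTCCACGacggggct
XBP1, chr22:28800598-28800641, minus strand: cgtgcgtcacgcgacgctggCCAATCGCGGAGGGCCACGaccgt
HERPUD1, chr16:56932005-56932055, plus strand: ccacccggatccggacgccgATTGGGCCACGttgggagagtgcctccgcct
HYOU1, chr11:119057254-119057410, minus strand: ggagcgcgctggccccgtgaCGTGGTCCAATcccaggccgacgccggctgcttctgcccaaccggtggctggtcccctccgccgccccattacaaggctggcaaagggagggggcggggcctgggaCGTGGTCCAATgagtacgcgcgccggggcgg
CALR, chr19:12938364-12938422, plus strand: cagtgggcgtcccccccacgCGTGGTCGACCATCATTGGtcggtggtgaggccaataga
SDF2L1, chr22:21642094-21642144, plus strand: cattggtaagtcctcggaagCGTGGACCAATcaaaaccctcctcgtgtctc
CRELD2, chr22:49918534-49918592, plus strand: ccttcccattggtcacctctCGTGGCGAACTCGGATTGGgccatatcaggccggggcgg
PDIA6, chr2:10812840-10812891, minus strand: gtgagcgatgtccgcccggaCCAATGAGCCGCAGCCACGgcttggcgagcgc

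The first 4 of these genes had log2 fold changes of 1.16 to 1.86 in PANC-1 cells and the last 4 of -0.91 to -0.33. Among those not shown, ERO1B had 0.30 (-0.22 to 0.85), CANX -0.13 and HSP90B1 -0.41. In CALR, SDF2L1, CRELD2, HYOU1 and ERO1B the element reads on the opposite strand of the gene, and HSP90B1 has an element on each strand. The element began 66 bases before the RefSeq start in HSPA5, 52 in XBP1, 117 in HERPUD1, and 185 and 79 in HYOU1. It began 225 bases before the start in CALR, 188 in SDF2L1, 80 in CRELD2 and 86 in PDIA6. The median log2 fold change of the 11 genes with an ERSE or ERSE-II was 1.27 in MIA PaCa-2 and -0.13 in PANC-1 cells, with 6 of 11 below 0 in the latter. The 21 without had medians of 1.09 and 0.19, with 8 below 0. A match of letters is not a site shown to be bound, and no match says only that the letters are not in the window.

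The 6 disulfide enzymes, like the chaperones, had a median above 0 in one line and below 0 in the other, 0.83 in MIA PaCa-2 and -0.38 in PANC-1 cells, and none of the 6 was called across both lines. P4HB, the founding protein disulfide isomerase, had 561 and 1362 CPM in MIA PaCa-2 versus 999 and 843 CPM in PANC-1 cells. Its log2 fold changes were 1.28 (1.25 to 1.31) and -0.25 (-0.27 to -0.22). PDIA3 (ERp57), the isomerase that works with CALR and CANX on glycoproteins, had 288 and 582 CPM in MIA PaCa-2 versus 521 and 363 CPM in PANC-1 cells, with log2 fold changes of 1.02 (0.97 to 1.06), just above 1, and -0.52 (-0.56 to -0.48). For both enzymes MIA PaCa-2 was the lower line with PBS and the higher line with CBC.

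PDIA4 (ERp72), an isomerase with additional thioredoxin-like domains, had 391 and 610.2 CPM in MIA PaCa-2 versus 564 and 309.8 CPM in PANC-1 cells, log2 fold changes of 0.64 (0.60 to 0.68) and -0.86 (-0.90 to -0.83). PDIA6, an isomerase that also dampens IRE1, had 416 and 425 CPM in MIA PaCa-2 versus 417 and 292 CPM in PANC-1 cells. Its log2 fold change of 0.03 (-0.01 to 0.07) in MIA PaCa-2 had an interval that included 0, and it was -0.52 (-0.56 to -0.47) in PANC-1 cells. In PANC-1 cells the oxidases that recharge the isomerases had values above 0, whereas the isomerases were below 0. ERO1A had 179 and 163 CPM in MIA PaCa-2 versus 131 and 175 CPM in PANC-1 cells, and was the 1 gene below 0 in MIA PaCa-2 (-0.14, -0.20 to -0.07) and above 0 in PANC-1 cells (0.42, 0.35 to 0.49). ERO1B had 193 and 601 counts in MIA PaCa-2, which gave 1.48 (1.25 to 1.73), and only 51 and 76 counts in PANC-1 cells, where its interval of -0.22 to 0.85 included 0.

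The degradation genes were above 0 in 9 of 10 cases in each line, beside 6879 of all 14001 genes in MIA PaCa-2 and 7245 of 14091 in PANC-1 cells. Their class median was 1.07 in MIA PaCa-2 and 0.29 in PANC-1 cells. HERPUD1 (chromosome 16, 56932142 to 56944864), a membrane protein that brings degradation substrates to the ligase complex, was the 1 gene of the class called across both lines. It had 31.0 and 292 CPM in MIA PaCa-2 versus 20.8 and 63.8 CPM in PANC-1 cells. The log2 fold changes were 3.23 (3.12 to 3.35) and 1.62 (1.47 to 1.77), and HERPUD1 rose across both lines by 2.44 (standard error 0.39, adjusted p = 0.0188, edgeR). It and ERN1 were the genes of the 36 with values above 1.5 in both lines besides HSPA5.

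The ligase core of this route and its partner SELENOS were past 2-fold in MIA PaCa-2 but not in PANC-1 cells. SYVN1 (HRD1), the ubiquitin ligase, had 44.2 and 128 CPM in MIA PaCa-2 versus 81.2 and 103 CPM in PANC-1 cells, log2 fold changes of 1.53 (1.43 to 1.64) and 0.35 (0.26 to 0.43). Its adaptor SEL1L had 51.3 and 142 CPM in MIA PaCa-2 versus 114 and 184 CPM in PANC-1 cells, with 1.47 (1.37 to 1.57) and 0.69 (0.63 to 0.76). SEL1L missed the threshold across both lines, with an effect of 1.09 and an adjusted p of 0.0539 (edgeR), and with library totals in place of TMM it was 0.0450. SELENOS (VIMP), a selenoprotein that ties the extraction ATPase to the membrane, had 19.0 and 61.7 CPM in MIA PaCa-2 versus 52.6 and 67.8 CPM in PANC-1 cells, with 1.69 (1.54 to 1.86) and 0.37 (0.26 to 0.47). For all 3 genes the PANC-1 control was above the MIA PaCa-2 control.

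The mannosidase-like EDEM proteins, which mark misfolded glycoproteins, had unlike values. EDEM2 had log2 fold changes of 1.31 (1.16 to 1.46) and 0.36 (0.25 to 0.48), EDEM1 of 0.67 and 0.24, and EDEM3 of -0.01 (-0.12 to 0.11) and -0.06 (-0.15 to 0.03), the 1 gene of the 36 below 0 in both lines, with both intervals including 0 and values of 0.06 and 0.01 with library totals in place of TMM. The derlins, which form part of the membrane channel, were at 0.83 and 0.13 for DERL2 and at 0.20 and 0.15 for DERL1. OS9, a lectin that recognises trimmed glycans, was at 0.75 (0.68 to 0.82) and 0.19 (0.14 to 0.24).

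Of the genes of translocation and export, SEC24D (chromosome 4, 118722823 to 118838683), a cargo adaptor of the COPII coat of vesicles leaving the ER, had 12.9 and 77.3 CPM in MIA PaCa-2 versus 72.0 and 58.6 CPM in PANC-1 cells. As with CREB3L2, the CBC-treated MIA PaCa-2 library reached the level of the PANC-1 control. The log2 fold changes were 2.58 (2.41 to 2.77) and -0.30 (-0.40 to -0.20), and the adjusted p across both lines was 0.351 (edgeR) with an effect of 1.13. SEC61A1 and SEC61B, subunits of the translocation channel, had log2 fold changes of 0.82 and 0.10 (SEC61A1) and of 0.30 and -0.30 (SEC61B) in the same order of lines.

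The log2 fold change was larger in MIA PaCa-2 than in PANC-1 cells for 35 of 36 genes, with ERO1A the exception, beside 6146 of all 12502 genes tested in both lines. The difference, MIA PaCa-2 minus PANC-1, had a median of 1.04, where the median of all genes was -0.01. It was above 1 for 19 of 36 genes, beside 7.02% of all genes, and below -1 for 0, beside 5.90%. An interaction term leaves no residual degree of freedom, so the difference was not tested across cultures. Its counting interval lay wholly above 1 for 17 genes and included 0 for 2, EDEM3 and DERL1. Other lists, described below, leaned the same way. The difference was above 0 for 81 of 109 further ER genes, 13 of 14 genes of the PERK and ATF4 arm and 18 of 20 cytosolic chaperones. Its medians there were 0.32, 0.83 and 0.43, and it was above 1 for 8, 6 and 4 genes of these lists.

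The classes lay in a different order here than in the response itself. The median difference was 1.54 for the chaperones, 1.34 for the disulfide enzymes, 0.74 for the degradation genes, 0.72 for translocation and export and 0.57 for the sensors. The largest differences were 2.89 (2.62 to 3.15) for DNAJB9, 2.88 (2.67 to 3.08) for SEC24D and 2.06 (1.87 to 2.24) for CREB3L2. HSPA5 and ERN1, with large values in both lines, each had a difference of 0.57. A log2 fold change above 1 in MIA PaCa-2 with one at or below 0 in PANC-1 cells was found for 8 genes, HSP90B1, DNAJC3, SDF2L1, MANF, PDIA3, P4HB, CREB3L2 and SEC24D, beside 1.63% of all genes. The signs were opposite, with both counting intervals excluding 0, for 15 of 36 genes, beside 12.7% of all genes, and 14 of these were above 0 in MIA PaCa-2 and below 0 in PANC-1, beside 5.99%. Among only the genes with both intervals excluding 0, these were 15 and 14 of 32, beside 1591 and 749 of 7601. In PANC-1 cells 13 of the 18 chaperones and disulfide enzymes were below 0, where 7245 of all 14091 genes tested were above 0. Further ER genes and cytosolic chaperones, described below, also lay mostly below 0 in PANC-1 cells. Above 0 were 35 of 110 further ER genes, among them 6 of 19 chaperones and 5 of 15 disulfide genes. Of the cytosolic chaperones 0 of 20 were above 0, and of the PERK and ATF4 arm 14 of 15.

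**Figure D3:**
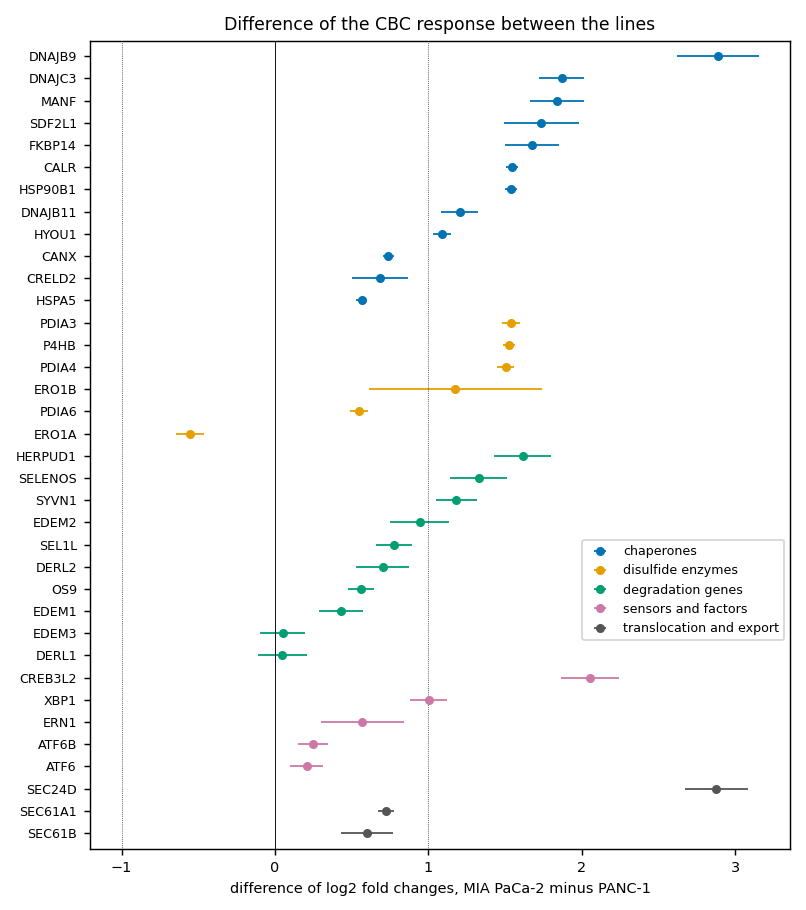
Difference of the log2 fold changes, MIA PaCa-2 minus PANC-1, for each of the 36 genes, colored and ordered by class, with bars for the 95% counting interval and dotted lines at -1 and 1. DNAJB9 and SEC24D lie furthest right at 2.89 and 2.88, ERO1A alone lies left of 0 at -0.56, and the bars of EDEM3 and DERL1 cross 0.

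The order of the lines was not the same in the controls and with CBC. With PBS, 27 of 36 genes had a higher CPM in PANC-1 than in MIA PaCa-2 cells, where the share of all genes was 53.2%, with a median log2 ratio of 0.60. With CBC, 9 of 36 were higher in PANC-1 cells, where the share of all genes was 53.0%, with a median of -0.55. With library totals in place of TMM, which moved the ratio of all genes from 0.08 to -0.05, the counts were 21 and 7. SEC24D had the largest control ratio, 2.48, and at -0.40 with CBC it had changed sides, as had DNAJC3 (1.32 and -0.55) and FKBP14 (1.14 and -0.54). EDEM1, with 1.5 and 1.07, stayed higher in PANC-1 cells in both treatments.

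Other genes tied to the same compartment had smaller medians. A list of 112 further ER genes covered folding, disulfide chemistry, degradation, sensing and transport. It also held genes whose products lie in the cytosol or nucleus, such as VCP and NFYA. Of these 112, 9 of 109 tested in MIA PaCa-2 and 0 of 110 in PANC-1 were above a log2 fold change of 1. Of all genes 11.5% and 7.71% were above 1. The medians of the further ER genes were 0.25 and -0.12. Of 15 genes of the PERK and ATF4 arm, 14 of 14 tested were above 1 in MIA PaCa-2 and 12 of 15 in PANC-1 cells. Their medians were 3.47 and 2.40, and 12 of 15 were called higher across both lines, beside 2.26% of all genes tested. Of 20 cytosolic chaperones and their partners, a list that includes the mitochondrial HSPD1 and HSPE1, 0 were above 1 in either line, beside the same 11.5% and 7.71%. Below -1 were 0 in MIA PaCa-2, beside 8.97% of all genes, and 2 in PANC-1 cells, beside 7.03%. The medians were -0.31 and -0.69, and 1 was called across both lines, as lower, beside 2.45% of all genes tested.

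Shared reads limit a few of these values. Exons of 20 of the 37 genes overlap those of another gene of the count table, and for 9 the partner had at least 100 counts in a library. The overlap was 15.9% of the exon bases of OS9 with AGAP2-AS1 on the same strand, which had 164 to 557 counts. SYVN1, with 982 to 3157 counts itself, shared 6.48% of its exon bases with MRPL49 on the opposite strand, which had 1165 to 2237 counts, and 2.37% with FAU on the same strand, which had 3622 to 5045 counts. The overlap was 6.15% of the exon bases of HSP90B1 with UQCC6 on the opposite strand, which had 119 to 387 counts. The libraries were made with a directional kit, but the sources used here do not give the strand option of the counting, so reads of genes on opposite strands may not have been told apart. Processed pseudogenes had few counts beside their parents, with at most 10 for HSPA5P1, 14 for XBP1P1 and 169 for PDIA3P1.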

How the data were processed

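Poly(A) RNA of 4 libraries (100-base paired-end reads) was trimmed by the authors with cutadapt 2.7, aligned to GRCh38 with STAR and counted per gene with HTSeq on the Ensembl release 89 annotation. Versions of STAR and HTSeq and the strand setting and mode of counting are not given in the sources used here. Raw counts per gene were deposited for the 4 libraries together. The deposited signal of each library is a CPM after TMM scaling (edgeR, all libraries), and the same values came out of the counts to within 6.84e-09 of their size.

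Values here were computed from the deposited counts with edgeR 4.0.16 in R 4.3.3. Log2 fold changes (TMM, prior count 2) were read against 1 and -1, as in the study, for genes reaching 1 CPM in either library of the line. The 95% intervals of count ratios were exact binomial ones. These, and the normal intervals of the ratio of 2 ratios, cover counting error only (scipy 1.17.1). The quasi-likelihood test across both lines used the cell line as a block on 16381 genes, with a common coefficient of biological variation of 23.0%. Its standard errors were derived from the F statistic, as the size of the log2 fold change over the square root of F. The pairing comes from the lines, and deviations of paired libraries from their treatment means correlated at 0.923 across genes. The p-values weigh the mean change of the lines against how unlike their changes were, with a dispersion estimated over genes. They do not measure a spread between replicate cultures. DESeq2 1.42.0 was an alternative. Gene positions, overlaps and canonical mRNA lengths came from GENCODE release 44, promoters from RefSeq. Every listed gene is named. Of the other ER genes, the 3 with the highest and the 3 with the lowest mean log2 fold change at a mean of 10 CPM or more were named. Members and lists were chosen with earlier results of these data known.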

Additional observations from a re-analysis of the deposited data

Results flagged for a closer look

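For 15 genes the log2 fold change was above 0 in one line and below 0 in the other with both counting intervals excluding 0, beside 12.7% of the 12502 genes tested in both lines. Among only the genes with both intervals excluding 0, these were 15 of 32, beside 1591 of 7601. Each value rests on 1 library per condition, and the difference between the lines was not tested across cultures. In 14 of them MIA PaCa-2 was above 0 and PANC-1 below, beside 5.99% of all genes. The differences, MIA PaCa-2 minus PANC-1, of the chaperones were 1.54 for HSP90B1, 1.54 for CALR, 0.74 for CANX, 1.21 for DNAJB11, 1.87 for DNAJC3, 1.74 for SDF2L1, 1.84 for MANF, 0.69 for CRELD2 and 1.68 for FKBP14. Those of the disulfide isomerases were 1.54 for PDIA3, 1.51 for PDIA4 and 1.52 for P4HB. SEC61B had 0.60 and SEC24D 2.88. ERO1A, with -0.56, was the 1 gene in the opposite order. All 15 were on opposite sides of 0 under each scaling, prior count and use of the deposited CPM that was tried.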

How the results depend on the processing

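Of 36 genes, 6 were called across both lines with the cell line as a block. Without the block, when differences between the lines count as spread, the number was 0, and without a filter on low counts, it was 14, while the calls over all genes went from 771 of 16381 to 2063 of 28834 (7.15%); the cause was not tested. With DESeq2 it was 7, beside 1371 of 13492 genes with an adjusted p (10.2%), with DESeq2's size factors in edgeR 5 (without ATF6) and with library totals 7. No gene was below -1 in PANC-1 cells, 1 was without the filter (DERL3, 7 counts against 0) and 3 were at a 1.5-fold threshold, CALR, FKBP14 and PDIA4. The other counts past 2-fold and the counts of genes higher in PANC-1 cells stayed within 1.5 times, the latter under 2 scalings chosen after the data were seen. The medians over all 36 genes moved by no more than the median half-width of the counting intervals of the genes. Library totals moved the median of all genes by 0.06 in MIA PaCa-2 and 0.07 in PANC-1 cells, and those of the disulfide enzymes to 0.89 and -0.31. Of the 36 genes, EDEM3 alone changed sign, with library totals, in both lines. The counting intervals do not cover the choice of scaling. With library totals 25 log2 fold changes of single genes in a line lay outside their interval and 47 inside. With TMM within each line these were 4 and 68. Leaving out a replicate was not possible, since each condition had 1 library and leaving out a line gives the values of the other line. Depth limits ERO1B and DERL3, the genes with under 100 counts in a library.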

Other observations

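Among the further ER genes, RNF185, a ubiquitin ligase of the ER membrane, had the highest mean of the log2 fold changes of both lines. It had 21.2 and 64.6 CPM in MIA PaCa-2 versus 35.1 and 64.3 CPM in PANC-1 cells, log2 fold changes of 1.61 (1.46 to 1.76) and 0.87 (0.75 to 0.999). RNF185 was the 1 of 111 such genes called across both lines (1.25, adjusted p = 0.0436, edgeR), beside 2.26% of all genes called higher. CREB3, a membrane-bound factor related to CREB3L2, had 1.86 and 0.14. It had 21.0 and 76.4 CPM in MIA PaCa-2 versus 72.7 and 80.1 CPM in PANC-1 cells, so that with CBC the lines were close, as for CREB3L2. SELENOM, a selenoprotein of the ER, had 1.47 and 0.38. At the other end were TMX1 (-0.86 and -0.63) and TMX4 (-0.96 and -0.22), membrane-bound thioredoxin-like proteins, and CREB3L1 (-0.65 and -0.43), whose PANC-1 value rests on 41 and 36 counts.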
